A study of Homo sapiens with 2 samples.

Results

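Of the NRF-1 peaks called in U251 cells, those at the starts of long non-coding RNA (lncRNA) genes, away from any coding start, are described here. A peak was taken when it overlapped the window of 1 kb either side of the start of a transcript of a lncRNA gene and overlapped no window of 1 kb either side of the start of a protein-coding transcript. These peaks numbered 1079 of 17850 in siControl and 1089 of 18295 in siAATF on chromosomes 1 to 22 and X, of 18014 and 18454 peaks listed in all. They are called lncRNA promoter peaks below, a name that rests on position alone, since transcription from these starts was not measured. U251 is an established human glioblastoma cell line. The cells carried either a control siRNA, labelled siControl, or an siRNA against AATF, labelled siAATF, and NRF-1 was immunoprecipitated in both, with library adapters inserted into the chromatin by the Tn5 transposase (ChIPmentation). There was 1 peak list per condition, so no test between conditions was possible and every interval below covers counting error only. A change of AATF itself could not be checked in peak lists.

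The transcription factor NRF-1 binds as a dimer to a palindromic, CpG-rich site in promoters, many of them promoters of nuclear genes for mitochondrial proteins. AATF is a transcriptional cofactor that was studied as a partner of NRF-1. A lncRNA gene is transcribed by RNA polymerase II from a promoter built much like a coding one. Some lncRNAs act as RNA, others mainly carry small RNAs such as snoRNAs or microRNAs in their introns or exons, and some are transcribed copies of coding genes.

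The site itself opens the description. The core of the NRF-1 site was written as the palindrome GCGCATGCGC and searched on both strands. With an exact match, it was present in 35 lncRNA promoter peaks of siControl (3.24%, exact 95% interval 2.27 to 4.48) and in 35 of siAATF (3.21%). With up to 1 mismatch, 194 siControl peaks (18.0%, 15.7 to 20.4) and 187 siAATF peaks (17.2%, 15.0 to 19.5) held it, where the share over all peaks of the lists was 17.4% and 16.8%. Hence the share at lncRNA starts lay near that of the lists as a whole. In siControl it lay below the 21.5% (20.8 to 22.3) of peaks within 1 kb of a coding start. It lay above the 7.58% of peaks at neither kind of start. In siAATF these other shares were 21.5% and 6.67%. A control palindrome of the same bases and CpG steps, GCCGATCGGC, was found with up to 1 mismatch in 2.78% of siControl lncRNA promoter peaks. At coding starts it was found in 4.73% of siControl peaks. Windows of equal width 5 kb away from the lncRNA promoter peaks held the core in 4 of 1078 cases (0.371%). A match describes the letters in a peak and is not a measured site.

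The 5 shared peaks below had the highest −log10 q in siControl among those with an exact core and a named lncRNA. They are shown because they hold the complete palindrome in capitals, with 60 bases on either side from the GRCh37 (hg19) assembly on the strand of the lncRNA. The stretches shown are PELO-AS1 at chr5:52095856-52095985 (minus strand), CASTOR3P at chr7:99869817-99869946 (minus strand), PDXDC2P-NPIPB14P at chr16:70100132-70100261 (minus strand), FAM66C at chr12:8332741-8332870 (plus strand) and FAM27C at chr9:44990191-44990320 (plus strand).
PELO-AS1: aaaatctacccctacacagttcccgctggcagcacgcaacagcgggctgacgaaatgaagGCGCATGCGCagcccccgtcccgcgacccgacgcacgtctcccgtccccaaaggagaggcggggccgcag
CASTOR3P: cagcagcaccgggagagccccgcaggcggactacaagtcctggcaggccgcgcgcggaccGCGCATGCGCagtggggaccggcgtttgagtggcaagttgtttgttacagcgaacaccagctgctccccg
PDXDC2P-NPIPB14P: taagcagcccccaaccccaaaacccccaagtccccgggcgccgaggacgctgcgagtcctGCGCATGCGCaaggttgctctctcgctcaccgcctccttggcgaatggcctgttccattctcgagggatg
FAM66C: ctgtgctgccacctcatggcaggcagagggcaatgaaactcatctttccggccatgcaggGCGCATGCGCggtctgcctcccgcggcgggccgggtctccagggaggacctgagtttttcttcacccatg
FAM27C: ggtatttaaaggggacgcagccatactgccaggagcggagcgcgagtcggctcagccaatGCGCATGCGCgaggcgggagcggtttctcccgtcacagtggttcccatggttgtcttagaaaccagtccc
PELO-AS1 is antisense to PELO, a gene for a ribosome rescue factor. CASTOR3P and PDXDC2P-NPIPB14P carry pseudogene names, and FAM66C and FAM27C belong to families of duplicated non-coding genes. The −log10 q of the 5 peaks in siControl ran from 78.2 at PELO-AS1 to 62.8 at FAM27C, and the same letters lay inside the siAATF peaks.

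The stretches shown are LINC00467 at chr1:211556070-211556199 (plus strand), MIR9-1HG at chr1:156426489-156426618 (minus strand), MIR4458HG at chr5:8457734-8457863 (plus strand), SNHG29 at chr17:16342072-16342201 (plus strand), MALAT1 at chr11:65264912-65265041 (plus strand), FTX at chrX:73513351-73513480 (minus strand) and SNHG8 at chr4:119199631-119199760 (plus strand). These 7 are the lncRNAs from the lists of snoRNA hosts, microRNA hosts and well-studied lncRNAs whose peak was above the median and held the core. Among them FTX had the exact core. In the other 6, 1 base differed, given as the base of the core, its position from 1 at the 5′ end of the core on the strand shown, and the base of the genome. The difference was A5G in LINC00467 and MALAT1, G1A in MIR9-1HG, C2A in MIR4458HG, T6G in SNHG29 and C10T in SNHG8.
LINC00467: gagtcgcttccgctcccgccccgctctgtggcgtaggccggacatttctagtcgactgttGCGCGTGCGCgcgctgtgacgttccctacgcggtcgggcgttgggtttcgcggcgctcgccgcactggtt
MIR9-1HG: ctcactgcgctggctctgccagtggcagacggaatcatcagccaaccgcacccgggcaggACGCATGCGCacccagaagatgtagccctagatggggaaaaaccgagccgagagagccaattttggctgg
MIR4458HG: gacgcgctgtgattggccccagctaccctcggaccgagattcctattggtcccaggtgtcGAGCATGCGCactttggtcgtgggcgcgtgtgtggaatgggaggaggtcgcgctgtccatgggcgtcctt
SNHG29: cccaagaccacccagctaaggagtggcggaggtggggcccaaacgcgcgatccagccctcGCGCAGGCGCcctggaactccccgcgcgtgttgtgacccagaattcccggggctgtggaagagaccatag
MALAT1: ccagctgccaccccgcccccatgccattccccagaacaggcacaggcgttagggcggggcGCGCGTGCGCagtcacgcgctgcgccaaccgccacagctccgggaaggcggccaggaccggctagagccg
FTX: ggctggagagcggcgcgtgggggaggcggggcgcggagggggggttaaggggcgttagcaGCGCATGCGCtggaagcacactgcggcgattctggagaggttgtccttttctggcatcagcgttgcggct
SNHG8: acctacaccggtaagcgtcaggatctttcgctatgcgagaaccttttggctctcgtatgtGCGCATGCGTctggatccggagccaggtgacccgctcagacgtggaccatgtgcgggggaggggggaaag
The centre of the core lay 0.5 bp downstream of the nearest annotated start at SNHG29 and 1.5 bp downstream at MIR9-1HG. At LINC00467 it lay at −24.5 bp, at MALAT1 at −134.5 bp and at FTX at −159.5 bp, where negative values are upstream.

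Core position was next measured against the nearest lncRNA start. Over the 194 siControl peaks with a core, its centre lay at a median of 32.5 bp upstream of the start (quartiles −120.5 and 24.5 bp), and over the 187 siAATF peaks at 40.5 bp upstream. It was upstream in 67.5% (60.4 to 74.1) and 69.5%. Within 100 bp of the start lay 107 cores (55.2%) in siControl and 104 (55.6%) in siAATF. Within 100 bp of the peak midpoint lay 73.7% and 78.6%. Most of these peaks, 166 in siControl, held 1 match, whereas 17 held 2 and 11 held at least 3. LINC03015 on chromosome 7 held 6, and the lncRNA ENSG00000286874, also on chromosome 7, held 3.

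**Figure D1:**
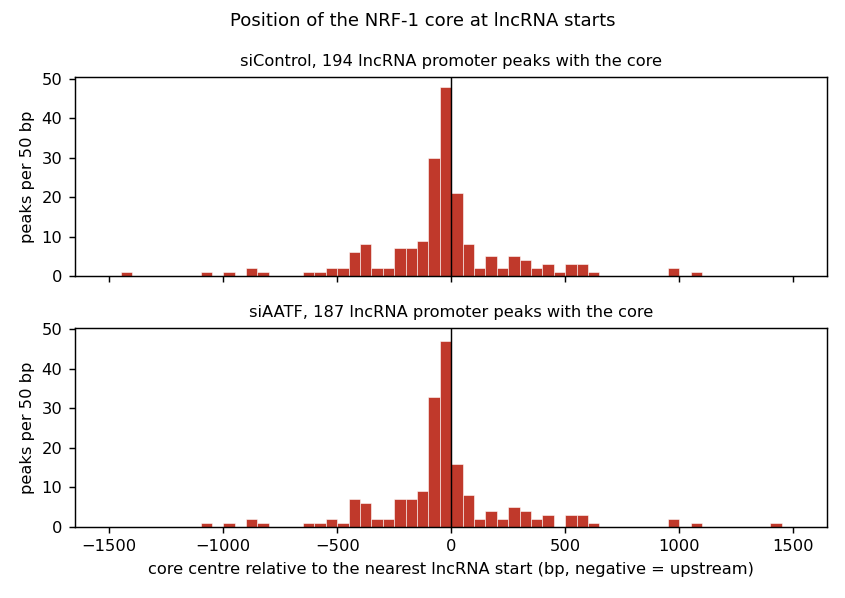
Position of the NRF-1 core (up to 1 mismatch) relative to the nearest lncRNA start, in bp on the x axis with negative values upstream, as peaks per 50 bp on the y axis, for 194 siControl peaks (top) and 187 siAATF peaks (bottom). In both lists the tallest bar is the one just upstream of the start.

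The strength of lncRNA promoter peaks lay between that of coding promoter peaks and that of peaks at neither kind of start. Strength is given as −log10 q, the peak caller's adjusted significance within a list, and as percentile rank by fold enrichment in the peak's own whole list, where 0 marks the lowest and 100 the highest. Fold enrichment is measured over the background of a library, so it was not compared between lists. lncRNA promoter peaks had a median −log10 q of 7.997 (7.19 to 8.96) in siControl and of 8.12 (7.23 to 8.78) in siAATF. Coding promoter peaks had medians of 15.7 and 14.9, and peaks at neither start 3.85 and 3.73. The median percentile rank was 46.1 (43.0 to 49.99) in siControl and 48.2 (44.9 to 51.5) in siAATF, beside 59.8 and 60.8 at coding promoters and 26.9 and 27.5 at neither start. None of these intervals of lncRNA promoter peaks reached the values of the other classes. The width was intermediate too, with a median of 604 bp (582 to 626) in siControl, where coding promoter peaks had 832 bp and the remaining peaks 404 bp.

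**Figure D2:**
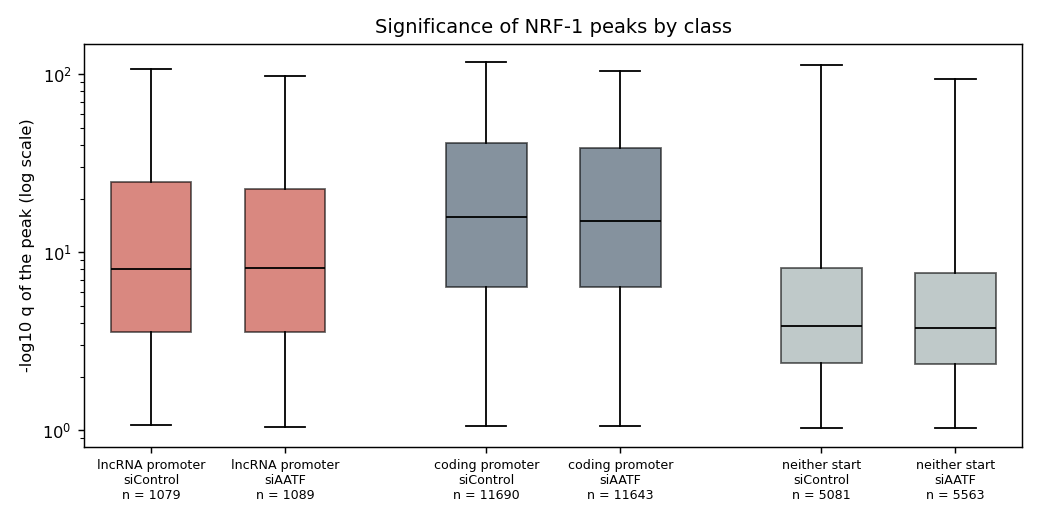
−log10 q of every peak (log scale) by class and list, with the median as a line, quartiles as a box and the lowest and highest peak as whiskers. lncRNA promoter peaks, with medians of 7.997 and 8.12, sit between coding promoter peaks (15.7 and 14.9) and peaks at neither start (3.85 and 3.73), and their whiskers reach as high as 107.

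In position, the midpoint of a lncRNA promoter peak lay at a median of 140 bp (125 to 156) from the nearest lncRNA start in siControl and of 134 bp in siAATF. The start was inside the peak in 734 (68.0%) and 751 (69.0%). Coding promoter peaks lay closer to their own starts, at a median of 77 bp in both lists. The peaks within 100 bp of a lncRNA start, 451 in siControl, had a median −log10 q of 11.2. The 145 peaks over 500 and up to 1000 bp away had one of 4.89. The core share was 24.2% (20.3 to 28.4) in the former and 7.59% (3.85 to 13.2) in the latter. The nearest coding start lay at a median of 32170 bp in siControl, so most members were far from any coding promoter. At the edge of the rule, the siControl peak of C1QTNF1-AS1 ended 1012 bp from a coding start of C1QTNF1 and was taken, whereas its siAATF peak came to 999 bp and was not. Another 2749 siControl and 2745 siAATF peaks were at a lncRNA start and a coding start at the same time and were left out.

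In base composition, lncRNA promoter peaks were again intermediate. Their median GC content was 63.9% in siControl, compared with 68.0% at coding promoters and 59.0% at neither start, and 46.0% in windows 5 kb away. The median density of CpG was 7.0 per 100 bases, compared with 9.29 and 3.05. The GC box GGGCGGG, a word bound by SP family factors, was in 54.8% (51.7 to 57.8) of lncRNA promoter peaks, 78.2% of coding promoter peaks and 27.4% of the rest. The ETS word CCGGAAG was in 15.8%, 26.7% and 6.10%, respectively. The AP-1 word TGACTCA, bound by FOS and JUN dimers and typical of enhancers, ran the other way, with 15.5% (13.4 to 17.8), 6.29% and 21.2%. In a window of 200 bases on either side of the midpoint, the same for all peaks, the AP-1 word was in 12.1%, 2.95% and 21.0%.

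The core was mostly found in strong peaks. Of siControl lncRNA promoter peaks with a −log10 q under 5, 15 of 398 held it (3.77%). From 5 to 20 the count was 33 of 368 (8.97%), from 20 to 50 it was 50 of 187 (26.7%), and at 50 or more 96 of 126 (76.2%, 67.8 to 83.3). The siAATF shares in the same order were 2.03%, 8.79%, 30.7% and 80.4%. Among the strongest peaks the other classes had like shares, 76.4% at coding promoters and 75.8% at neither start in siControl. From 5 to 20 the lncRNA share of 8.97% (6.25 to 12.4) lay above the 3.36% (2.85 to 3.93) of coding promoter peaks in siControl, and the siAATF values were 8.79% (6.16 to 12.1) and 3.50% (2.99 to 4.07). At neither start they were 6.89% and 4.88%. Peaks with a core had a median −log10 q of 49.1 and a median rank of 75.7 in siControl, and peaks without one 6.21 and 39.6.

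**Figure D3:**
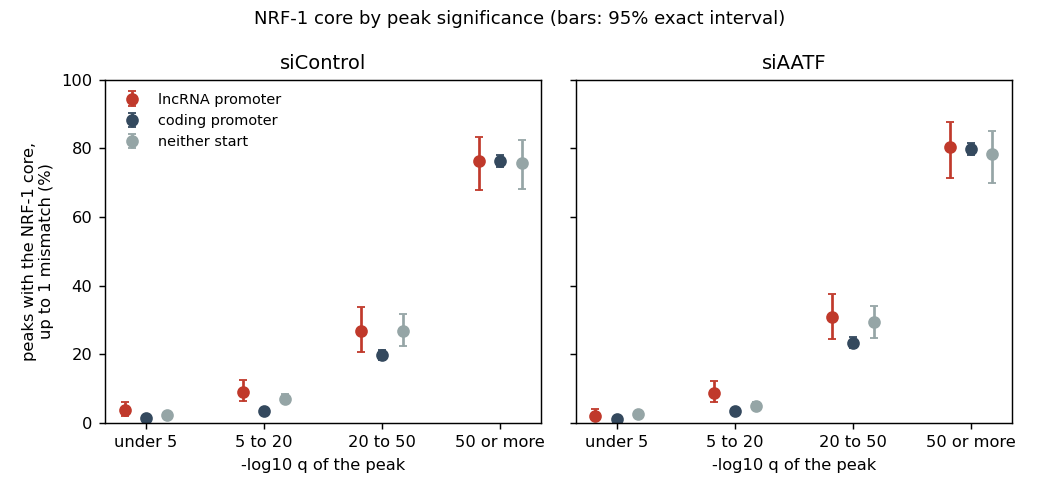
Percent of peaks with the NRF-1 core (up to 1 mismatch, y axis) in 4 ranges of −log10 q (x axis) for lncRNA promoter, coding promoter and other peaks, in siControl (left) and siAATF (right), with exact 95% intervals as bars. At a −log10 q of 50 or more, the 3 classes lie between 75.8% and 80.4%, and from 5 to 20 lncRNA promoter peaks lie above coding promoter peaks in both lists.

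The 10 strongest shared lncRNA promoter peaks, by −log10 q in siControl, all held the core. The first, at ENSG00000286874 (chromosome 7, 4680985 to 4682185, upstream of the start), had a −log10 q of 107 in siControl and 97.8 in siAATF. Next came ENSG00000243176 on chromosome 3 (97.3 and 85.8), in whose exon the midpoint lay, also with the exact core. SDHAP1 followed with 93.9 and 85.7, and MUC20-OT1 with 91.7 and 84.2. ENSG00000288929 had 89.9 and 85.0, but its peak ended only 1072 bp from a coding start of KDM6B, a gene for a histone demethylase, and lay within that gene. MRPL45P2 had 89.8 and 76.5, and AMZ2P1 89.7 and 84.9. ENSG00000289409 had 88.1 and 80.4, LINC02693 87.0 and 71.2, and LINC03015 86.3 and 84.2. All 10 values were lower in siAATF than in siControl. However, the 10 were picked for high siControl values, so lower values in the other list could follow from that choice alone. The −log10 q also depends on the depth of a library, which was not given. The percentile ranks of the same peaks were higher in siAATF at 5 and lower at 5, with changes between −11.1 and 1.76 points.

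By fold enrichment the order was different. The highest value was at GTF2IP1, named for a pseudogene of the transcription factor gene GTF2I, with 13.5 in siControl (rank 99.98) and 12.7 in siAATF, and its peak on chromosome 7 (74653105 to 74653672) held the exact core. ENSG00000247765 on chromosome 15 had 12.8 and 12.1 and held no core. FAM66E followed in siControl with 12.2, and ENSG00000290832 on chromosome 7 in siAATF with 11.6. Each of these 4 peaks was shared.

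SDHA codes for the flavoprotein of complex II of the respiratory chain, and its transcribed copies gave a close view of the site. Lists of such copies were drawn up after values had been seen. SDHAP1, SDHAP4 and MUC20-OT1, all on chromosome 3, had starts beside sequence that aligned to the SDHA promoter peak on chromosome 5 (217870 to 219040) over 1023 columns, with an identity of 85.1%, 85.2% and 85.3%. The 4 sequences below are centred on the core match nearest the peak midpoint and shown on the strand of each gene. The marked core carried the same difference, T6G, in all 4. Each stretch also holds a further match with the same difference upstream of the marked one, left in small letters. In siControl the whole peaks of SDHAP1 and SDHAP4 held 3 matches each. The stretches shown are SDHAP1 at chr3:195717115-195717244 (minus strand), SDHAP4 at chr3:197354705-197354834 (minus strand), MUC20-OT1 at chr3:195384853-195384982 (plus strand) and SDHA at chr5:218356-218485 (plus strand).
SDHAP1: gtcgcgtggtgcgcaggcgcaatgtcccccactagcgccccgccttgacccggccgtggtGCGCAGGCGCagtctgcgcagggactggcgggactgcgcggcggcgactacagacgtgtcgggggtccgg
SDHAP4: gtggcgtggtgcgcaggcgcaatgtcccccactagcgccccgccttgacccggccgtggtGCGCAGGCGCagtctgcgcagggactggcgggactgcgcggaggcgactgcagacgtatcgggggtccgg
MUC20-OT1: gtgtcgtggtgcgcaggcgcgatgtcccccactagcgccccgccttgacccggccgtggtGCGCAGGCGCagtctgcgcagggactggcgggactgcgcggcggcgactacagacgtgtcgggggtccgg
SDHA: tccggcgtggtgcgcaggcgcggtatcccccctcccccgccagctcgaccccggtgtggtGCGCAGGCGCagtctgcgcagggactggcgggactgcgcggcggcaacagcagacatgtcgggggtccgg
The SDHA peak had a −log10 q of 103 in siControl and of 88.8 in siAATF, and its rank was 72.8 and 69.7. At SDHAP1 the rank was 63.8 and 60.5, at SDHAP4 63.5 and 59.6, and at MUC20-OT1 66.2 and 61.8. All 4 ranks were thus lower in siAATF, each by less than the median absolute change of 6.04 points over all matched lncRNA promoter peaks. SDHAP1, SDHAP4 and MUC20-OT1 differed from one another at only a few of the bases shown, and from SDHA at more. Reads that fall where copies are identical cannot be placed uniquely, and how such reads were treated was not given in the sources used here.

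Altogether 35 siControl peaks had a lncRNA named as a pseudogene of a coding gene as their nearest one, and 18 of them (51.4%, 34.0 to 68.6) held the core, where 17.4% of the list did. In siAATF the count was 17 of 35 (48.6%, 31.4 to 66.0). Their median −log10 q was 28.1 and 26.7, beside 7.997 and 8.12 over all lncRNA promoter peaks. Of all siControl lncRNA promoter peaks, 26.7% held the core at a −log10 q of 20 to 50 and 76.2% at 50 or more. The part of strength in the count was not tested. Some of these lncRNAs are copies of the same coding gene, such as SDHAP1 and SDHAP4, so they are not independent. The coding gene of the same name had a promoter peak in 29 of the 35 cases in siControl and in 30 in siAATF. Over all coding genes, 61.2% and 60.8% had a peak at a start. A coding gene with several copies was counted once per copy. In 8 of the siControl cases the 300 bases at the midpoint aligned to the coding gene's peak over at least 150 columns at an identity of at least 90%. MRPL45P2, a copy of the mitochondrial ribosomal protein gene MRPL45, matched at 97.7% over 301 columns and had a −log10 q of 89.8, and MRPL45 had 82.4. NPEPPSP1 matched the aminopeptidase gene NPEPPS at 97.7% over 300 columns, had 74.3 beside 66.0, and held no core. Without the peaks of pseudogene-named lncRNAs, no share or median rank of lncRNA promoter peaks moved beyond its interval.

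Names of lncRNAs were also used to group the rest. In siControl, 572 peaks had an lncRNA known only by an identifier or clone name, 217 a LINC name, 105 an antisense name ending in -AS, 142 another symbol, 21 a microRNA host name, 15 a snoRNA host name and 7 a divergent name ending in -DT. The core share was 15.6% (12.7 to 18.8) for identifiers, 13.4% (9.14 to 18.6) for LINC names and 17.1% (10.5 to 25.7) for antisense names. For other symbols, a group that includes all 35 pseudogene names, it was 37.3% (29.4 to 45.8) in siControl and 35.4% (27.6 to 43.8) in siAATF. The lncRNA start was inside a coding gene in 204 siControl peaks, of which 163 were on the opposite strand to that gene. The core share was 13.2% (8.91 to 18.7) there and 19.1% (16.5 to 21.9) for starts outside coding genes.

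Counted over genes, 1204 of 18592 lncRNA genes (6.48%) had a lncRNA promoter peak in siControl and 1205 in siAATF, with 1081 genes in both, which is 89.8% and 89.7% of the respective genes. The next count takes the 14918 lncRNA genes with no start within 1 kb of a coding start. Of these, 1277 (8.56%, 8.12 to 9.02) had a peak in siControl and 1282 (8.59%) in siAATF. Among the 3674 with such a start, 2663 (72.5%) had a peak, and among coding genes 12094 of 19756 (61.2%).

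Among the groups of lncRNA names, the snoRNA hosts had the highest share by this count. These genes carry snoRNAs, guides of ribosomal RNA modification, in their introns. Of 19 snoRNA hosts with no coding start nearby, 16 (84.2%, 60.4 to 96.6) had a peak in siControl and 15 (78.9%, 54.4 to 93.9) in siAATF. SNHG29 was the strongest, with a −log10 q of 68.5 in siControl and 72.3 in siAATF. SNHG5 had 53.5 and 50.8, SNHG8 had 51.7 and 50.4, and DANCR, also an inhibitor of differentiation, had 50.5 and 42.8. SNHG15 followed with 32.7 and 37.3. Lower values were found at SNHG30 (15.9 and 21.9), SNHG16 (13.0 and 13.5), SNHG7 (11.9 and 11.2), SNHG25 (9.89 and 6.83) and SNHG12 (9.55 and 9.65). SNHG29 and SNHG8 held the core with 1 mismatch, and these were the only snoRNA hosts in the siControl list whose peak did. A siAATF peak of 22.9 was nearest to a start of SNHG28, and its siControl counterpart of 26.3 was nearest to a start of another lncRNA. No peak was found at SNHG14, SNHG27 or SNHG32 in either list, and SNHG26 had one of 2.67 in siControl only.

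Of 71 microRNA hosts with no coding start nearby, 16 (22.5%, 13.5 to 34.0) had a peak in siControl and 16 in siAATF. The genes were the same except for MIR194-2HG, in siControl only, and MIR9-3HG, in siAATF only. MIR9-1HG, host of the neural microRNA miR-9, had 79.3 in siControl and 76.6 in siAATF. MIR4458HG had 69.8 and 65.0, and both held the core with 1 mismatch. MIR29B2CHG, host of the miR-29 family, had 49.9 and 47.5 without a core. MIR181A2HG had 38.5 and 35.2, MIR210HG, host of a hypoxia-induced microRNA, 29.3 and 29.7, and MIR762HG 25.4 and 24.8. At MIRLET7A1HG, host of let-7 microRNAs, the values were 22.5 and 24.1. MIR99AHG had 21.6 and 20.9, and MIR17HG, host of an oncogenic microRNA cluster, 17.4 and 16.5. MIR100HG had 8.14 and 6.66. At MIR3681HG the siControl peak of 6.77 was below the median of lncRNA promoter peaks and the siAATF peak of 11.6 above it. A siAATF peak nearest to MIRLET7BHG had 20.3, with a siControl counterpart of 26.8.

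Among well-studied lncRNAs, 38 of the 40 listed were found by symbol among lncRNA genes, 12 of them near a coding start. Of the other 26, 17 (65.4%) had a peak in siControl and 17 in siAATF, with NEAT1 in siControl only and FIRRE in siAATF only. LINC00467 led with a −log10 q of 84.1 in siControl (rank 95.6) and 70.2 in siAATF (rank 91.8). LINC00461, a brain-enriched lncRNA and host of a copy of miR-9, had 3 peaks above the median at separate starts in siControl. These had 70.0, 30.5 and 12.2, and 63.9, 28.3 and 24.7 in siAATF, none with a core. MALAT1, a nuclear lncRNA of the splicing speckles, had 61.3 and 51.8, and its peak on chromosome 11 (65264671 to 65265400) had its midpoint 76 bp upstream of a start. FTX, a lncRNA of the X inactivation centre, had 54.7 and 47.2 in a broad peak of 1811 bp with 3 matches to the core. DLEU2 had 31.1 and 25.1, and SOX2-OT, which overlaps the stem cell factor gene SOX2, 22.5 and 24.0. NORAD, which binds Pumilio proteins, had 16.5 and 21.0, and LINC-PINT, a lncRNA of the p53 response, 11.6 and 12.5. PVT1, next to MYC, had 10.7 and 14.7. No peak was found at AIRN, CRNDE, CYTOR, LINC00665, LUCAT1, MEG3, TTN-AS1 or UCA1. In all, 30 genes of the 3 lists had a siControl peak above the median of lncRNA promoter peaks, each of them shared, and 7 of these held the core in their strongest peak. Of all siControl lncRNA promoter peaks, 98.4% were shared at a −log10 q of 5 to 20 and all at 20 or more. At 5 or more, 26.3% held the core, so neither count marks these genes out.

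**Figure D4:**
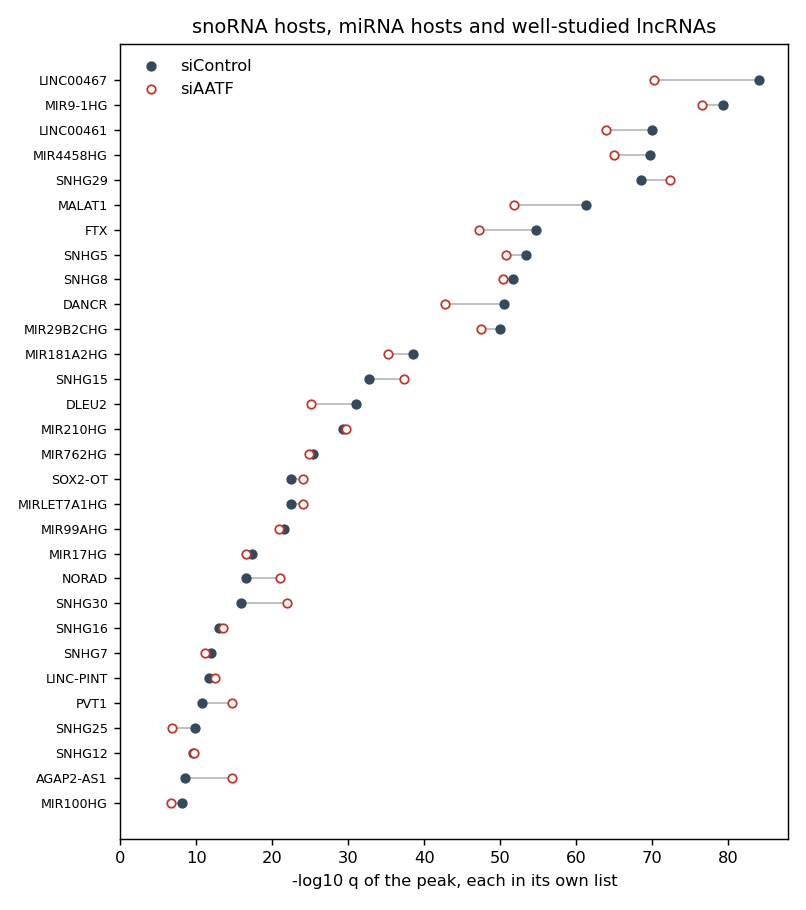
−log10 q (x axis) of the strongest siControl lncRNA promoter peak of each of 30 snoRNA hosts, microRNA hosts and well-studied lncRNAs (filled) and of its siAATF counterpart (open), each in its own list. LINC00467 is highest with 84.1 and 70.2 and MIR100HG lowest with 8.14 and 6.66, and the order of the genes is much the same in both lists.

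Whether lncRNA promoter peaks were kept after AATF depletion was addressed by overlap of at least 1 base. Of the siControl peaks 956 of 1079 overlapped a siAATF peak (88.6%, 86.6 to 90.4), and 956 of 1089 the other way (87.8%, 85.7 to 89.7). Hence 123 siControl and 133 siAATF peaks had no counterpart (11.4% and 12.2%), where 11.3% and 13.4% of the whole lists had none. The share at lncRNA promoters was therefore near that of the lists, and it lay between the classes, with 96.1% and 96.5% shared at coding promoters and 71.7% and 65.6% at neither start. Of the 956 shared siControl peaks, 947 met a lncRNA promoter peak, 2 met only a coding promoter peak and 7 only a peak at neither start. Sharing followed strength, with 70.6% of siControl peaks shared under a −log10 q of 5, 98.4% from 5 to 20 and all of the 187 and 126 in the higher ranges. Under 5, 80.2% of coding promoter peaks and 54.8% of peaks at neither start were shared, and from 5 to 20 99.8% and 96.7%. Peaks with a core were shared in 96.9% in siControl and in 187 of 187 in siAATF.

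Peaks without a counterpart were weak. In siControl and siAATF, respectively, their median −log10 q was 2.48 and 2.24, their median rank 14.8 and 14.2, and their median width 282 and 299 bp. The strongest by rank in siControl was at LINC02768 (chromosome 1, 236135001 to 236135513), with a rank of 55.0 and a −log10 q of 7.08, followed by ENSG00000288769 with a rank of 53.8, ENSG00000290112 with 52.5, LINC03051 with 47.8 and ENSG00000255229 with 47.2. In siAATF, ENSG00000286410, whose peak lay within SLC41A2 on chromosome 12 (105252742 to 105253199), had a rank of 71.2 and a −log10 q of 8.96. ENSG00000282807 (51.9), LINC00499 (47.4), ENSG00000253736 (45.9) and ENSG00000282602 (43.1) came next. None of these 10 peaks held the core. The core was in 6 of the 123 siControl-only peaks (4.88%, 1.81 to 10.3) and in 0 of the 133 siAATF-only peaks, which allows a share of up to 2.26% by a limit of 3 counts and up to 2.74% by the exact interval. The AP-1 word was in 15 of 123 (12.2%, 6.99 to 19.3) and in 34 of 133 (25.6%, 18.4 to 33.8). Whether these 2 shares differ was not tested. Among all lncRNA promoter peaks with a −log10 q under 5, the core was in 3.77% in siControl and 2.03% in siAATF. The AP-1 word was in 16.8% and 16.7% of those peaks, and in 11.1% and 13.7% of the whole lists. Of the well-studied list, NEAT1 had a peak in siControl only (−log10 q 4.40) and FIRRE in siAATF only (3.10), both below the median.

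The order of shared peaks was much the same in both lists. Over 940 pairs that met 1 to 1 with both peaks at lncRNA promoters, Spearman's rho of the ranks was 0.909 by fold enrichment and 0.944 by −log10 q. These describe peaks of the same 2 libraries, which are not independent replicates. The rank in siAATF was higher in 514 pairs and lower in 426, with a median change of 0.62 points (0.10 to 1.20). Over all 15644 pairs the median change was 0.24 points (0.10 to 0.40), with 8065 higher and 7579 lower. At neither start it was 0.92 points (0.47 to 1.45) and at coding promoters 0.09 points (−0.04 to 0.25). The small upward shift was thus not limited to lncRNA promoters. Ranks were taken within each whole list, where 11.3% of siControl and 13.4% of siAATF peaks had no counterpart. The part of this difference in the shift was not tested. The rank in siAATF was more than 20 points higher in 63 pairs (6.70%), where 5.52% of all 15644 pairs were. It was more than 20 points lower in 42 pairs (4.47%), where 4.1% were. Both shares were close to those of all pairs. Either change was seen in 105 pairs (11.2%, 9.23 to 13.4), compared with 6.71% (6.25 to 7.19) of pairs at coding promoters, 18.2% (16.9 to 19.4) at neither start and 9.62% of all pairs. Ranking by −log10 q instead gave 5.64% (4.25 to 7.31) at lncRNA promoters, 2.66% at coding promoters, 11.4% at neither start and 4.86% of all pairs.

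Large changes of rank were found in weak peaks. They were seen in 54 of 273 pairs (19.8%) with a siControl −log10 q under 5 and in 47 of 355 (13.2%) from 5 to 20. Pairs at coding promoters had 15.0% and 9.68% in these ranges and pairs at neither start 21.3% and 20.2%. From 20 to 50 there were 4 of 186 (2.15%), and at 50 or more there were 0 of 126. The latter allows a share of up to 2.38% by a limit of 3 counts and up to 2.89% by the exact interval. The median siControl ranks in these ranges were 81.1 and 83.1, so many of the pairs could not rise by over 20 points. Under 5, 43 of the large changes were rises and 11 falls, and from 5 to 20, 17 and 30. The ranges were set by siControl values, so these directions could follow from that choice alone. Of 188 pairs with a core in either peak, 5 changed by more than 20 points (2.66%, 0.87 to 6.10), and of 752 without one, 100 (13.3%, 11.0 to 15.9).

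**Figure D5:**
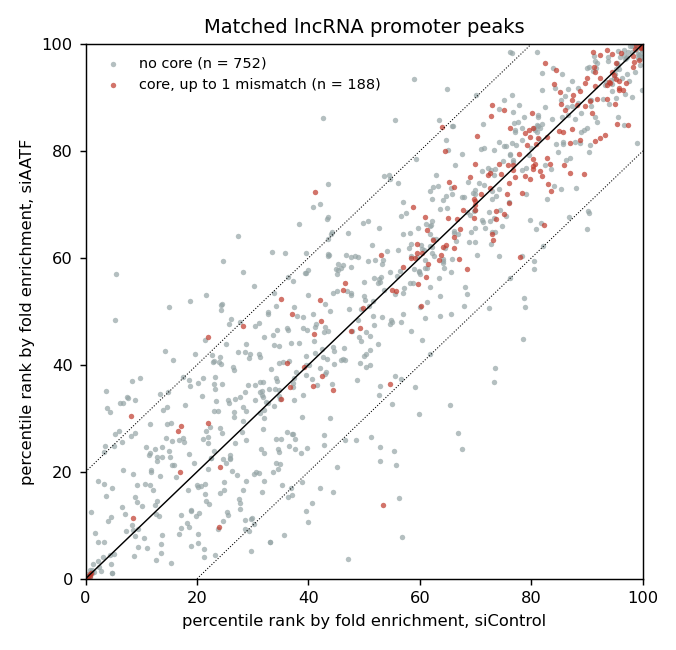
Percentile rank by fold enrichment in siControl (x axis) and siAATF (y axis) of 940 matched lncRNA promoter peaks, with those holding the NRF-1 core in red (n = 188) and others in grey (n = 752). The solid line marks equal ranks and the dotted lines a change of 20 points, which 105 pairs exceeded, 5 of them with a core.

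The largest falls were at LINC01918 on chromosome 2, from a rank of 56.8 to 7.83, and at SYT15-AS1, antisense to the synaptotagmin gene SYT15, from 47.0 to 3.61. ENSG00000288618 went from 67.6 to 24.3, ENSG00000267764 on chromosome 18 from 56.3 to 15.1 and ENSG00000258131 from 66.9 to 27.2. The largest rises were at ANXA2R-OT1 on chromosome 5, from 5.54 to 57.0, at LINC00937, from 42.6 to 86.1, and at ENSG00000264914, from 5.25 to 48.3. ENSG00000267053 went from 27.3 to 64.0 and LINC01968 from 15.1 to 50.9. The −log10 q of these 10 peaks ran from 1.58 to 10.1 in siControl, and none held a core. Without replicates, the spread that such ranks show between libraries of a condition was not measured. Of the listed lncRNA peaks above the median in siControl, that of AGAP2-AS1 ranked 24.2 points higher in siAATF (43.5 and 67.7), and another peak of PVT1 20.1 points higher (43.4 and 63.5). AGAP2-AS1 is antisense to AGAP2, and its midpoint lay in an intron of that lncRNA. The other peaks of listed lncRNAs above the median changed by between −6.17 and 19.3 points. MIR3681HG, above the median in siAATF alone, went from a rank of 55.6 to 85.8.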

How the data were processed

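NRF-1 ChIPmentation in U251 cells gave 1 MACS2 broadPeak list for siControl and 1 for siAATF. U138 stands in the series' design text, but the sample labels, which name U251, were followed. The study's methods and the submitters' processing notes name Bowtie2, MACS2 and hg19, within an ATAC-seq pipeline run with defaults, and no input or IgG library. Duplicates are described, whereas each label says replicate 1, and whether reads were pooled was not stated. Per the labels, positions were deposited by the authors in bp on hg19. The fold enrichment over local background, a ratio, the −log10 p and −log10 q, and the score (the −log10 q times 10, not used) were deposited by the authors in MACS2's own form. Read numbers were not part of the lists, so depth was unknown. Weak peaks were kept, down to a −log10 q of 1.03 (siControl) and 1.02 (siAATF).

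Starts came from GENCODE 44 lifted to GRCh37 and sequence from GRCh37, the assembly of hg19, inside whose chromosomes all peaks used ended. The lists were kept separate and then matched by 1 base of overlap. Shares have exact 95% intervals (Clopper-Pearson) and medians binomial order-statistic intervals, computed with Python 3.11.15, SciPy 1.17.1, pandas 2.3.3, pysam 0.24.0 and Biopython 1.88. The scripts were tested on simulated data. No test was run, as there were no replicates. The genome file held no soft-masking, so the planned masked share was not computed.

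The members, lists and alternatives were chosen with earlier results of these data known. Named were listed lncRNAs with a peak (snoRNA hosts, microRNA hosts and well-studied lncRNAs, with values above the median −log10 q), the 10 shared peaks with the highest siControl −log10 q, the 3 highest folds and the 5 highest-ranked condition-specific peaks per list, and the 5 largest falls and rises of rank. Copies of coding genes, and NEAT1, FIRRE, SNHG26 and FAM182B, were added after their values had been seen. The alternatives were windows of 500 bp and 2 kb, canonical lncRNA transcripts, lncRNA starts outside coding genes, a core within 200 bases of the midpoint, a stricter −log10 q of 5 for either list, reciprocal overlap of 50%, a gap of 500 bp, ranking by −log10 q and an exact core.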

Additional observations from a re-analysis of the deposited data

How the results depend on the processing

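Of 89 values over 11 results and 12 alternatives, 77 stayed within their interval or within 1.5 times of the reported count, and 12 moved. Of the alternatives, 2 were added after seeing the data, namely leaving out peaks at a non-coding transcript start of a coding gene and leaving out lncRNAs named as pseudogenes of coding genes, and neither moved a value. Keeping peaks of either list with a −log10 q of 5 or more left 681 lncRNA promoter peaks in siControl and 694 in siAATF, by construction, and with it the shared share in siControl was 91.8%, the core share 26.3% and 25.8%, and the median rank in siControl 50.1. Reciprocal overlap of at least 50% gave shared shares of 82.8% in siControl and 81.8% in siAATF. Windows of 2 kb gave a shared share of 85.0% in siAATF. The exact core was in 3.24% and 3.21%. Ranking by −log10 q left 5.64% of pairs with a change of over 20 points, instead of 11.2%. The cause of these shifts was otherwise not tested. No paired analysis was possible because each condition had a single list, and no replicate could be left out. Depth was unknown, and its part in the missing counterparts of weak peaks was not tested.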

Other observations

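FAM182B, a duplicated non-coding gene on chromosome 20, had 5 lncRNA promoter peaks in each list, all matched 1 to 1 and each with a core upstream of a start. It was singled out after its values had been seen. The peak at 25834202 to 25835111 had a −log10 q of 47.5 and a rank of 36.2 in siControl. The other 4 had a −log10 q between 11.4 and 29.8 but ranks between 0.14 and 0.86, so they were significant peaks with among the lowest fold enrichments of the list. In siAATF these 4 had ranks between 0.18 and 0.98. The core was exact in 4 of the 5 and 1 mismatch away in the peak at 25846104 to 25846837. Their neighbourhood was not examined further.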
